A study of Mus musculus with 2 samples.

Results

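Of 18193 genes measured in embryonic kidney endothelium, 83 encode kinesins, centromere proteins or other parts of the machinery that moves and separates chromosomes, and their values are described here. They were chosen by symbol alone. These were the 37 genes with a kinesin symbol of the form Kif1a, the 20 with a centromere protein symbol of the form Cenpa, and 26 named genes of the kinetochore, spindle, checkpoint and cytokinesis, so intracellular transport kinesins that do not act in division were included. RNA came from CD-1 mouse embryos at E15.5 (Theiler stage 23) that carried GFP driven by the Tie2 promoter, which is active in endothelium, and was measured on 2 arrays of 1 group (replicates 1 and 2). For each array roughly 5 to 10 kidneys were pooled, dissociated with trypsin and sorted by FACS (fluorescence-activated cell sorting), and the RNA went through 2 rounds of amplification before biotin labelling. The titles carry the name of another endothelial receptor, Flk1, and the labelled source is the inner lining of the renal artery and vein, whereas the protocol dissociated whole kidneys. The labels do not say whether the pools came from separate litters, so the spread between arrays may be technical, and with 1 group there was no contrast to test and no p-value.

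Kinesins are motors that walk along microtubules or shorten them. In a dividing cell a set of mitotic kinesins builds the spindle and moves the chromosomes, which are held at the kinetochore, a protein assembly built on centromeric chromatin. The spindle checkpoint delays anaphase until every kinetochore is attached, and the anaphase-promoting complex then releases the sister chromatids. Most of these genes are transcribed late in the cell cycle, and their RNA in a tissue is commonly read as a trace of proliferating cells.

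Each pair of values is the deposited intensity, in arbitrary units, in replicate 1 followed by that in replicate 2. A gene was represented by its most intense probe set and was called above background when it exceeded, on both arrays, the 95th percentile of 83 probe sets for 75 sensory receptor genes (202 and 204). Differences are log2 intensity of replicate 1 minus replicate 2 after an offset of -0.03 was removed. How brightly a probe set reads depends on its own sequence, so genes were not ranked by level. In sorted bulk cells, fewer cells of a type and less RNA per cell cannot be told apart. All 12 endothelial markers were above background (12 of 12), among them Tek, which encodes Tie2, at 15908 and 21499. All 10 macrophage markers were above it too, with sums of 90498 and 108630, as were 9 of 10 renal stroma markers, whose sums were 23483 and 76028. Of the erythroid markers 5 of 7 were, with Hbb-y at 55397 and 48789. For nephron progenitor markers the count was 3 of 6 (sums of 1866 and 2450) and for ureteric bud markers 4 of 7 (1917 and 2250), beside 61.0% of all genes. The part of these other cells in the results below was not tested, and the number of arrays limits the precision of every value.

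Of the 83 genes, 71 (85.5%) were above background on both arrays, beside 61.0% of all genes. Outside the kinesins 45 of 46 genes were above background, with Cenpb as the exception, and of the kinesins 26 of 37 were. Values over 10 times the limit on both arrays, a bound chosen after the data were seen, were found for 50 of the 83, beside 29.9% of all genes. When a gene was represented by the median of its probe sets, 27 genes were over this bound. The genes not above background were Kif14 (replicate 1 only), Kif15 and Kif5c (replicate 2 only), and Cenpb, Kif1a, Kif2b, Kif5a, Kif6, Kif9, Kif12, Kif27 and Kif28 (neither array). Of these 12 genes, 6 had 1 probe set, so that the call rested on a single measurement per array. A fixed limit of 100 placed Kif6, Kif9, Kif15 and Kif5c above background as well, and the median over probe sets left out Cenpk, Cenpo, Kif20b, Bub3, Kif13b, Kif17, Kif21a and Kif21b.

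**Figure D1:**
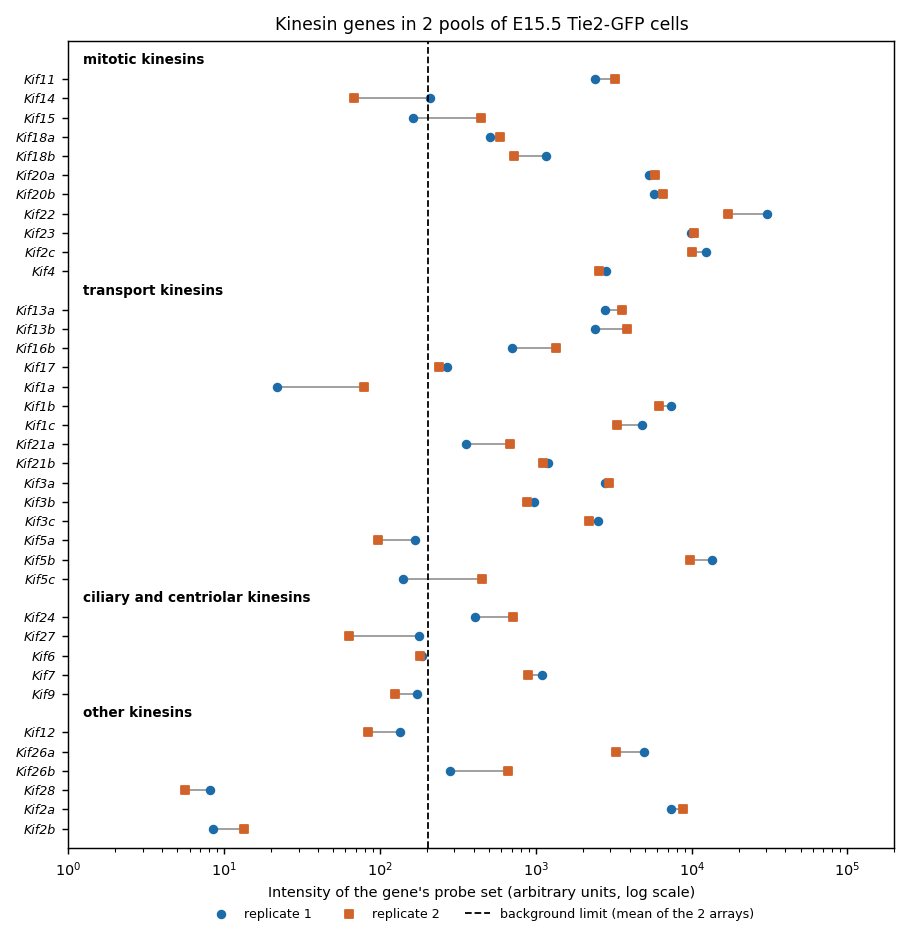
Intensity (arbitrary units, log axis) of each of the 37 kinesin genes in replicate 1 (circles) and replicate 2 (squares), grouped by role, with the mean background limit of the 2 arrays as a dashed line. Of the 11 mitotic kinesins 9 lay above the limit on both arrays, as did 17 of the 26 other kinesins (65.4%, beside 61.0% of all genes). Kinesins known from neurons or cilia lay on both sides of it.

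Promoters of cell-cycle genes are known for a CHR (cell cycle genes homology region, TTTGAA), bound by the DREAM and MMB complexes, and for CCAAT boxes bound by NF-Y. Both motifs were searched on both strands in RefSeq promoter windows (GRCm38.p6) from 250 bases before to 50 bases after the transcription start, which were found for 73 of the 83 genes. Within 50 bases on either side of the start, a CHR match was found in 27 of the 73 genes (37.0%), beside 5.72% of 27025 genes in the promoter table and 3.87% of the 9028 of them that were above background here. Over the whole window the shares were 43.8% and, for all genes, 20.2%. A CCAAT match within the same distance was found in 34.2% of the 73 genes and in 15.6% of all genes. Of 6737 CHR matches in all promoters, 47 overlapped a CCAAT match. The sequences below run from 130 bases before to 20 bases after the start, 5′ to 3′ along the gene, with matches to either motif in capitals. A CHR reads TTCAAA and a CCAAT box reads ATTGG where the match is on the other strand. These promoters were chosen after the matches were seen, 6 to show a CHR near the start with a CCAAT box upstream of it in genes of different roles, and 2, from transport kinesins, to show promoters with neither motif in this stretch. They lie at chr4:118437324-118437473 (minus strand) for Cdc20, chr2:164769799-164769948 (plus) for Ube2c, chr7:80294321-80294470 (plus) for Prc1, chr19:37376252-37376401 (plus) for Kif11, chr9:61946780-61946929 (minus) for Kif23, chr1:189688067-189688216 (minus) for Cenpf, chr11:70700418-70700567 (plus) for Kif1c and chr2:49619156-49619305 (plus) for Kif5c.
Cdc20: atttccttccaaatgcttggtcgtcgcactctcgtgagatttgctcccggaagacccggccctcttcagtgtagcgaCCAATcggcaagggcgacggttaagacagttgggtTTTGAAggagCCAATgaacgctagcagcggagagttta
Ube2c: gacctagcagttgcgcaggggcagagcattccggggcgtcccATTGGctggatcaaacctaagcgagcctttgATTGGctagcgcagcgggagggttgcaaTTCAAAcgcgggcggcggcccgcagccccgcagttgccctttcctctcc
Prc1: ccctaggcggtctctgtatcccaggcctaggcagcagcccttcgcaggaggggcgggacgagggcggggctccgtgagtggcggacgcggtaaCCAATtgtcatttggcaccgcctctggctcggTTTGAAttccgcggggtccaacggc
Kif11: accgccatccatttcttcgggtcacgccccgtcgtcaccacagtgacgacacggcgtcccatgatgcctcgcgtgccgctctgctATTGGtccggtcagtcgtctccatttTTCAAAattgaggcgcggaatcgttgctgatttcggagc
Kif23: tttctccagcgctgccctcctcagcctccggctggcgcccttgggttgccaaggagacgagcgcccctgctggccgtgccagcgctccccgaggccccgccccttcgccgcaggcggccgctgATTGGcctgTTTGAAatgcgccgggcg
Cenpf: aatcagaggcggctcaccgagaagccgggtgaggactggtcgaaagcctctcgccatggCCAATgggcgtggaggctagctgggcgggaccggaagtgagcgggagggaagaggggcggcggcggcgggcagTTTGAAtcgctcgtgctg
Kif1c: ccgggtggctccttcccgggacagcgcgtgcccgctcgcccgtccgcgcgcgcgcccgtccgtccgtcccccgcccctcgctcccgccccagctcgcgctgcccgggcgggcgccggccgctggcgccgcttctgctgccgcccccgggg
Kif5c: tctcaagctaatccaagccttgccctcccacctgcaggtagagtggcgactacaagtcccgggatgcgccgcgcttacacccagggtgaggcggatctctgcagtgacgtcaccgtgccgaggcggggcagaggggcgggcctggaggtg

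The 73 genes had 83 windows, because some have several starts, and a gene counted if any of its windows held the match. In Cdc20 the CHR match began 18 bases before the start and in Kif11 19 bases before it. In Prc1 it began 5 bases before the start used for the printed sequence and 30 bases before another. In Kif23 and Cenpf it began at base 3 after the start. A CCAAT match upstream of such a CHR was present in 22 of the genes. Their left ends were 20 to 50 bases apart in 14 of the 22, with a median of 35 bases, beside 22.2% of the 608 windows in the whole table that hold the same pair. The motif was spread unevenly over the roles. A CHR match near the start was found in 7 of 10 mitotic kinesins and in 14 of the 22 genes outside the kinesin and Cenp families. It was found in 4 of 20 centromere protein genes (20%) and in 2 of 21 kinesins outside the mitotic set (9.52%). The share of all genes in the promoter table was 5.72%. Kif2a, which also acts at spindle poles, and Kif2b were counted outside that set, so these shares depend on how it was drawn up. A match describes these letters only and is not a measured site.

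**Figure D2:**
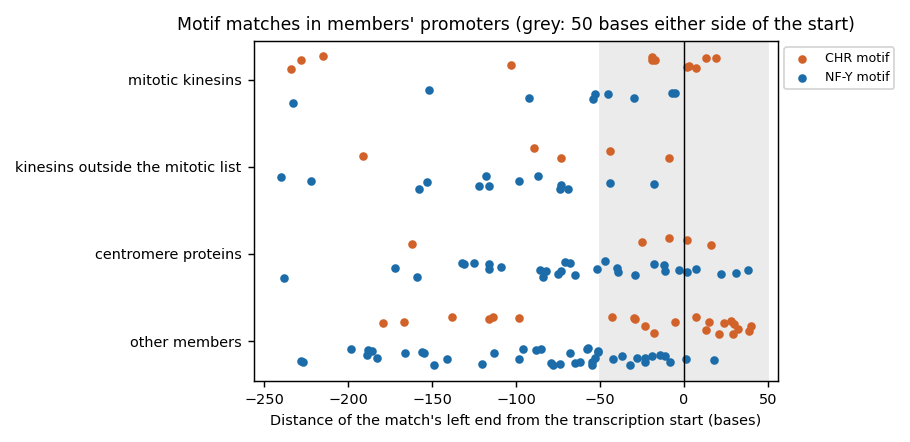
Distance (bases) of each CHR match (orange) and CCAAT match (blue, NF-Y motif) from the transcription start, with 1 row for each class of gene, and grey marking 50 bases on either side of the start. CHR matches of the mitotic kinesins and of the other members gather near the start, and kinesins outside the mitotic set have few.

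Among the mitotic kinesins, 9 of 11 (81.8%) were above background on both arrays, beside 61.0% of all genes. Of the 11, 7 were over 10 times the limit, beside 29.9% of all genes. The set was drawn up with earlier results known. Kif2a, which also acts at spindle poles (7386 and 8823), and Kif2b, at 8.42 and 13.4, were placed outside it. The counts therefore depend on how the set was drawn up. Kif11, the motor that pushes the spindle poles apart, gave 2409 and 3214. Kif15, which helps to hold the poles apart when Kif11 is weak, gave 164 and 446 and so lay above background in replicate 2 only. Kif22, which binds chromosomes and pushes their arms outward, gave 30427 and 17135. That probe set carries a suffix that marks possible cross-hybridisation, and the one without a suffix gave 1924 and 1513. Kif4, which acts on chromosome arms and at the midzone, gave 2807 and 2545. Of the motors that shorten or damp microtubule ends, Kif2c gave 12334 and 10116. Kif18a, which limits chromosome movements at the spindle equator, gave 504 and 586. Kif18b, which works on astral microtubules, gave 1168 and 725. The motors of late division were likewise above background, with the exception of Kif14. Kif23, a subunit of centralspindlin in the midzone, gave 9974 and 10336. Kif20a, which carries the chromosomal passenger complex to the midzone, gave 5334 and 5825. Kif20b, a motor of late cytokinesis, gave 5754 and 6547. Kif14, another motor of cytokinesis, gave 209 and 68.3, just over the limit in replicate 1 and below it in replicate 2. The median difference of the 9 genes above background was -0.02 and 4 of them were higher in replicate 1. When each gene was taken as the median over its probe sets the median difference was 0.04, so the set had no settled direction.

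Of the 26 kinesins outside the mitotic set, 17 (65.4%) were above background on both arrays, near the 61.0% of all genes. Of the transport kinesins among them 12 of 15 were. The 3 that were not, Kif1a, Kif5a and Kif5c, are known as motors of neurons, although Kif17 and Kif21b, also known from neurons, were above it. Kif5b, the conventional kinesin of most tissues, gave 13449.9 and 9813. Its neuronal relative Kif5a gave 167 and 96.7, under the limit on both arrays. Kif5c, likewise neuronal, gave 141 and 451 and exceeded the limit in replicate 2 only. None of the 3 probe sets of Kif5a or the 4 of Kif5c was above background on both arrays. Among other vesicle motors, Kif1a, which carries precursors of synaptic vesicles, gave 21.9 and 78.8. Kif1b, which carries mitochondria and vesicles, gave 7336 and 6214, and all 7 of its probe sets were above background. Kif1c, which carries vesicles and integrins, gave 4767 and 3299.9. Of the kinesin-2 motors, which also build cilia, Kif3a gave 2764 and 2944. Its partner Kif3b gave 977 and 882. Kif3c, the alternative partner, gave 2498 and 2188. All 3 Kif3 genes were above background on both arrays, with differences from -0.06 to 0.23 on the log2 scale. Another probe set of Kif3c above background was at -0.94. The endosomal motor Kif16b gave 707 and 1346, higher in replicate 2. Kif13a, which moves recycling cargo, gave 2779 and 3573. Its relative Kif13b, which binds the scaffold protein Dlg1, gave 2394 and 3832. Kif21a, which restrains microtubule growth at the cell cortex, gave 358 and 683. Kif21b, its relative, gave 1188 and 1116. Kif17, known from dendrites and cilia, gave 268 and 238, close to the limit. As values for neuronal RNA, 4 of 11 neuron markers were above background, with sums of 3832 and 3010. These were Gap43 at 1323 and 872, Map2 at 837 and 747, Stmn2 at 350.0 and 449 and Syt1 at 259 and 210.5. Elavl3 (264 and 122), Nefl (216 and 184) and Ina (227 and 93.9) exceeded the limit in replicate 1 only. Elavl4 (196 and 249) exceeded it in replicate 2 only. The neuronal tubulin Tubb3 (32.2 and 10.3), the synaptic protein Snap25 (69.5 and 10.6) and Nefm (59.2 and 62.6) exceeded it on neither array. The part of neuronal RNA in the transport kinesins was not tested.

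Of the kinesins of cilia and centrioles, Kif6, Kif9 and Kif27 were not above background, whereas Kif7 and Kif24 were. Kif7, which acts in Hedgehog signalling at the tip of the primary cilium, gave 1096 and 891. Kif24, which keeps the mother centriole from forming a cilium, gave 407 and 717. Both exceeded the limit on both arrays. Kif27, known from motile cilia, gave 177 and 63.1. Kif9, a motor of sperm flagella and motile cilia, gave 174 and 124. Kif6, known from cilia of the ependyma, gave 187 and 182. The last 3 lay under the limit on both arrays. A limit of 100 placed Kif6 and Kif9 above background, and a limit at the 90th percentile placed Kif6 there. Of the ciliated cell markers, 1 of 9 (Dnaic1) was above background, and Foxj1, the regulator of motile ciliogenesis, gave 77.4 and 43.1. In the remaining kinesins the pattern was mixed. Kif2a, which shortens microtubules at spindle poles and in neurons, gave 7386 and 8823. Its relative Kif2b gave 8.42 and 13.4, below background. Kif12, known from kidney tubules and linked to cyst growth, gave 134 and 83.4, also below it. Kif26a, a kinesin without motor activity, gave 4949 and 3254. Kif26b, which is needed for the adhesion of kidney mesenchyme around the ureteric bud, gave 280.4 and 667. Kif28 gave 8.05 and 5.57, under the limit on both arrays.

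**Figure D3:**
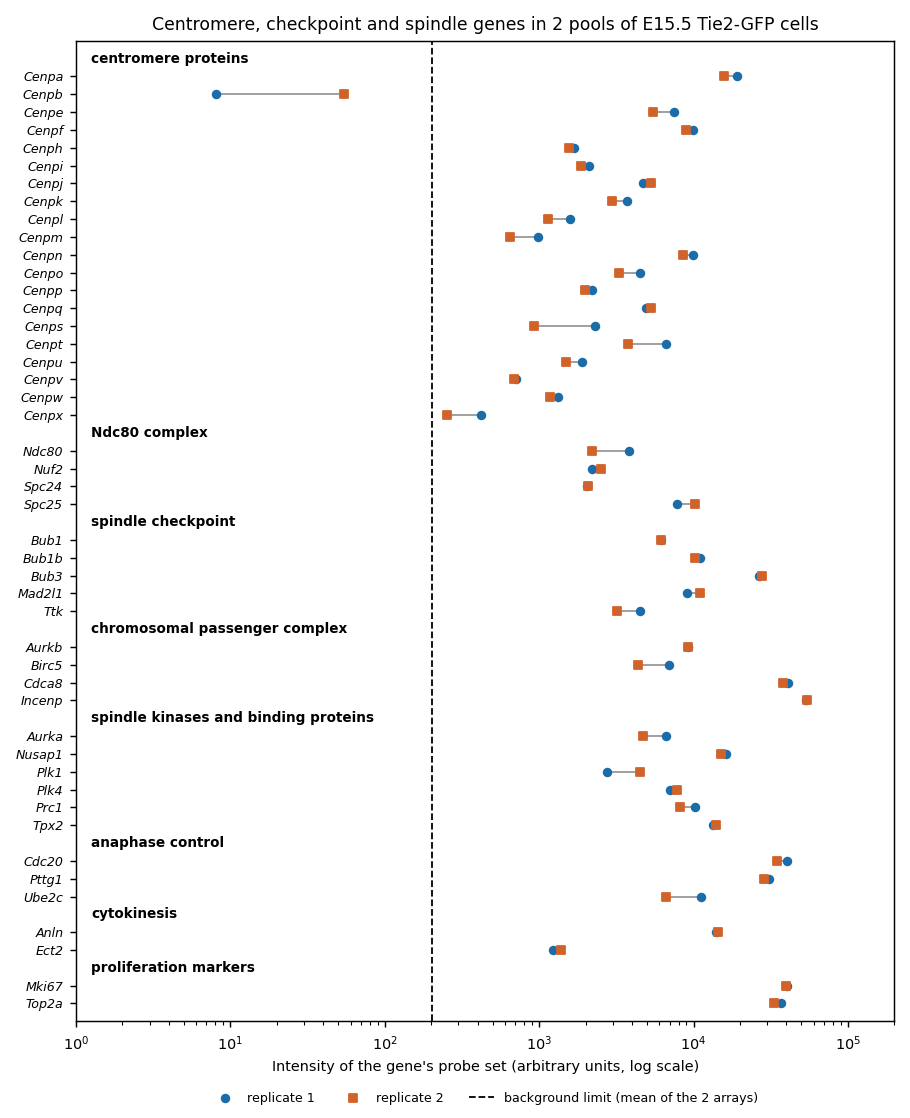
Intensity (arbitrary units, log axis) of the 46 genes that are not kinesins by symbol in replicate 1 (circles) and replicate 2 (squares), grouped by role, with the mean background limit of the 2 arrays as a dashed line. All but Cenpb lay to the right of the limit on both arrays.

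Of the centromere protein genes, which run from centromeric chromatin to the proteins that catch microtubules, 19 of 20 were above background. Cenpa, the histone H3 variant that marks the centromere, gave 19135 and 15811. Cenpb, which binds a satellite DNA motif, gave 8.06 and 54.8, and neither of its 2 probe sets was above background. The inner kinetochore genes of the constitutive centromere network were above the limit on both arrays. In its nucleosome-binding pair, Cenpn gave 9957 and 8505. Its partner Cenpl gave 1586 and 1141. Of the H, I, K and M group, Cenph gave 1678 and 1549.5. Cenpi, of the same group, gave 2096 and 1853. Cenpk gave 3680.4 and 2943, from 1 of 3 probe sets above background. Cenpm gave 987 and 649.6. All 4 genes of this group were higher in replicate 1. In the group of O, P, Q and U, which helps to hold Plk1 at the kinetochore, Cenpo gave 4475 and 3279. Cenpp gave 2202 and 1981. Cenpq gave 4939 and 5266. Cenpu, the subunit that docks Plk1, gave 1886 and 1482. Cenpq was higher in replicate 2 and the other genes of this group in replicate 1, although Cenpo was at -0.01 when taken as the median over its probe sets. Of the histone-fold proteins that lead outward to the Ndc80 complex, Cenpt gave 6675 and 3786. Cenpw, its partner, gave 1320.2 and 1174. Cenps gave 2297 and 923, which was 2.55-fold higher in replicate 1 after centring. Cenpx, its partner, gave 419 and 254, nearer the limit. All 4 histone-fold genes were higher in replicate 1, although Cenpw was at -0.05 when taken as the median over its probe sets. Genes of the outer corona and spindle followed the same call. Cenpe, a motor that brings chromosomes to the spindle equator, gave 7474 and 5492. At log2 differences of 0.48 and -0.55, its 2 probe sets went opposite ways between the arrays. Cenpf, a large corona protein, gave 9989 and 8889.8. Cenpv, which bundles microtubules late in division, gave 708 and 689. Cenpj, which is a centriole protein in spite of its name, gave 4713 and 5298.

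Of the 19 centromere protein genes above background, 17 were higher in replicate 1 and 2 (Cenpq and Cenpj) in replicate 2, with a median difference of 0.31. Among all genes above background, 54.2% were higher in replicate 1 and the median was 0.04. Without centring and after quantile normalization 17 of 19 were again higher in replicate 1, and when each gene was taken as the median over its probe sets 13 of 17 were, with a median difference of 0.15. Probe sets above background went opposite ways between the arrays for Cenpe, Cenpn, Cenpu and Cenpw. The endothelial markers had a median difference of 0.19, the macrophage markers -0.15, the DNA replication genes 0.24, and the renal stroma markers -1.86 with 0 of 9 higher in replicate 1. Whether the makeup of the pools contributed to the difference was not tested, and 1 array against 1 array has no replicate check.

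The outer kinetochore and the checkpoint were above background in full, 4 of 4 Ndc80 complex genes and 5 of 5 checkpoint genes, and each was over 10 times the limit on both arrays. The Ndc80 complex grips the microtubule. Ndc80 itself gave 3820.4 and 2196. Nuf2, which pairs with Ndc80, gave 2201 and 2511. Spc24, of the pair that anchors the complex to the inner kinetochore, gave 2029 and 2079.7. Spc25, the other anchor, gave 7766 and 10155. Ndc80 was thus higher in replicate 1, Nuf2 and Spc25 in replicate 2, and Spc24 was nearly equal, although the probe set of Spc25 without a suffix was higher in replicate 1 (0.21). In the checkpoint, the kinase Ttk (Mps1), which starts the signal at unattached kinetochores, gave 4527 and 3174. Bub1, the kinase recruited next, gave 6147 and 6110.1. Bub1b (BubR1), part of the complex that inhibits the anaphase-promoting complex, gave 11009 and 10272. Bub3, which carries Bub1 and Bub1b to the kinetochore, gave 26349.9 and 27584, with 2 of its 5 probe sets above background. Mad2l1 (Mad2), the protein that captures Cdc20, gave 9048 and 11034. Probe sets of Ttk went opposite ways between the arrays, with log2 differences of 0.55 and -0.47.

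The chromosomal passenger complex, which corrects faulty attachments, was above background in all 4 genes. Its kinase Aurkb gave 9238 and 9209.9. Incenp, the scaffold, gave 53294 and 54475 from a probe set whose suffix marks possible cross-hybridisation. Of its probe sets without that mark, one gave 3367 and 3227 and another 390.7 and 204.7, so the level of Incenp is uncertain. Birc5 (survivin) gave 6959.9 and 4373. Cdca8 (borealin) gave 41161 and 38206. Birc5, with 1 probe set, was higher in replicate 1 by 0.70 on the log2 scale. All 6 spindle kinases and binding proteins were above background as well. Aurka, the kinase of spindle poles, gave 6594 and 4673. Tpx2, which activates Aurka on the spindle, gave 13408 and 13935. Plk1, the kinase of mitotic entry and kinetochores, gave 2766 and 4513. Plk1 was higher in replicate 2, and Aurka in replicate 1, although its median over probe sets was -0.08. Plk4, which starts centriole duplication, gave 7049 and 7823. Nusap1, which stabilises spindle microtubules, gave 16145 and 15134. Prc1, which bundles the midzone, gave 10228 and 8197.

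Genes that control anaphase and the last steps of division followed, all above background. Cdc20, which activates the anaphase-promoting complex, gave 40453 and 34742. Ube2c, its ubiquitin-conjugating enzyme, gave 11108 and 6632. Pttg1 (securin), which holds separase inactive, gave 30880.2 and 28639. All 3 were higher in replicate 1, with differences from 0.14 to 0.78, but the probe sets of Pttg1 differed among themselves, from -0.97 to 0.14, and the median over those of Cdc20 was -0.01. In cytokinesis, Anln (anillin), the scaffold of the contractile ring, gave 14064 and 14387. Ect2, which switches on RhoA at the cleavage site, gave 1237 and 1385. The general markers of proliferation, Mki67, which coats mitotic chromosomes, and Top2a, the topoisomerase that untangles sister chromatids, were over 10 times the limit. Mki67 gave 40060.1 and 39722. Top2a gave 36676 and 33421. Their differences between the arrays were 0.05 and 0.17 on the log2 scale.

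Between the arrays, the 71 genes above background differed with an SD of 0.45 on the log2 scale, beside 0.51 over all genes above background, and their median difference was 0.15. The comparisons with all genes here were not matched for intensity, and 50 of the 83 members were over 10 times the limit, beside 29.9% of all genes. Of the 71, 47 were higher in replicate 1 and 24 in replicate 2, beside 54.2% of all genes above background that were higher in replicate 1. When each gene was taken as the median over its probe sets, 33 of 63 were higher in replicate 1, so the count rests on the choice of probe set. A difference over 2-fold was found for 2 of them, beside 4.83% of all genes above background. These were Cenps, higher in replicate 1 by 1.35 on the log2 scale, and Kif26b, at -1.22 and so higher in replicate 2. Each was read by 1 probe set, and Kif26b was not above background at 2 times the limit. Kif26b lay on the same side as the 9 renal stroma markers above background, which ranged from -2.71 to -0.85, and whether stromal cells contributed to it was not tested. Outside the kinesins and centromere proteins the differences of the 26 genes had a median of 0.05, with 17 higher in replicate 1, and quantile normalization lowered this count to 14.

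**Figure D4:**
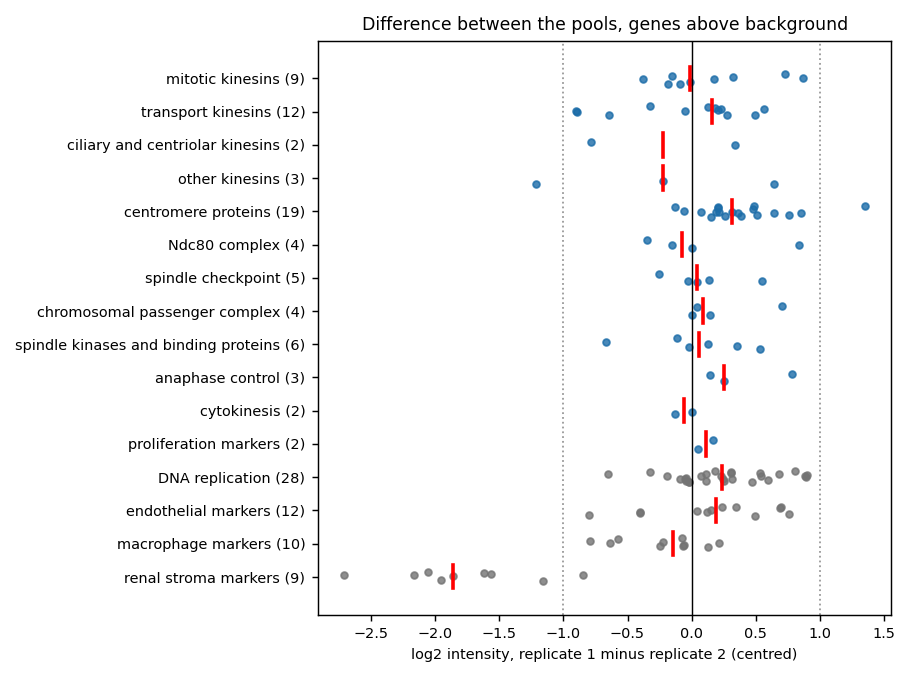
Difference between replicate 1 and replicate 2 (log2 intensity, centred) of each gene above background, by role, with DNA replication genes and cell type markers in grey, a bar at each median, dotted lines at a 2-fold difference and the number of genes in parentheses. Of the centromere proteins 17 of 19 lie to the right of 0, and all 9 renal stroma markers lie to its left.

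The genes were covered by 194 probe sets, of which 137 were above background on both arrays, beside 55.0% of all probe sets with 1 gene. Among the 52 genes with several probe sets, 22 had all of them above background, 24 had some and 6 had none. For 38 genes at least 2 probe sets were above background, and in 18 of these all pointed the same way between the arrays. The median spread of the difference within a gene was 0.50 on the log2 scale, and the widest was 1.38 for Cenpp, whose probe sets gave 0.19 and 1.57. For 15 genes the most intense probe set carried a suffix that marks possible cross-hybridisation with other transcripts. The mark was _x_at for Aurkb, Cdc20, Incenp, Kif22 and Kif2c. For Kif2c the probe sets without a suffix gave 693.1 and 845.2, and 536.8 and 261.4, so its level depends on the probe set. The mark was _s_at for Bub1b, Bub3, Cdca8, Cenpo, Kif16b, Kif3b, Kif5a, Plk4, Prc1 and Pttg1. Their brightest probe set without a suffix gave 4926.5 and 3302 for Cdca8, 953 and 1912 for Pttg1 and 1971 and 2261 for Bub3. For Kif3b it gave 988 and 871, close to the values printed above. With probe sets without a suffix alone, 64 of the 74 genes that have one were above background.

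**Figure D5:**
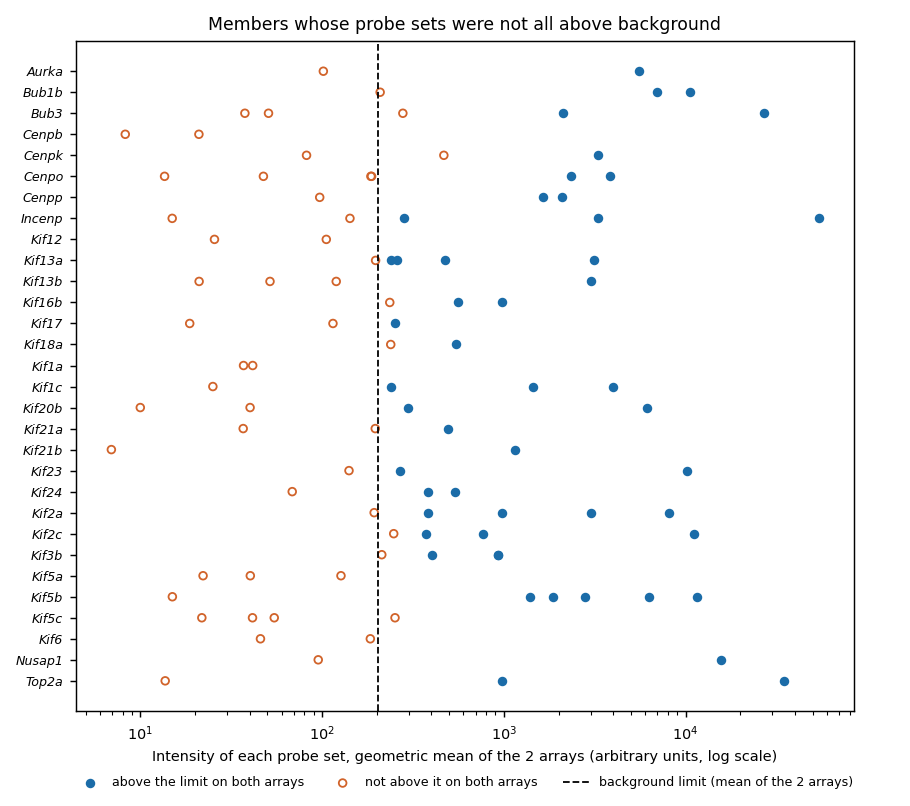
Intensity (geometric mean of both arrays, arbitrary units, log axis) of every probe set of the 30 genes that have several probe sets, not all of them above background. Genes with a single probe set are not shown. Filled points were above the limit on both arrays, open points were not, and the dashed line is the mean background limit of the 2 arrays.

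Genes of the same processes that carry other symbols gave similar counts. Of 21 measured genes of the kinetochore outside the set, 20 were above background, and Mad1l1, the partner that recruits Mad2, was not (199 and 124). Ska1, which helps kinetochores follow shrinking microtubules, was the one gene of this list with a difference over 2-fold (2209 and 975). All 30 further genes of the spindle and of division were above background. All 28 DNA replication genes were above it. In contrast with the genes of mitosis, 1 of 14 meiosis genes was above background, Stag3, a cohesin subunit of meiosis (482 and 348). Of 11 cyclins and cyclin-dependent kinases 10 were above background. Ccne2, a cyclin of S phase entry, exceeded the limit in replicate 2 only (199 and 385), and Cdk2 was the one kinase with a difference over 2-fold (5994 and 409.7). A CHR match near the start was found in 13 of 23 further genes of the spindle and of division with a promoter window. It was found in 2 of 22 DNA replication genes (9.09%), beside 5.72% of all genes in the promoter table.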

How the data were processed

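RNA of 2 pools of sorted Tie2-GFP cells was measured on Affymetrix whole-genome mouse arrays of the 3' type. The authors deposited a linear intensity for each probe set. GCOS, with no version, is named in the submitters' processing notes, and the trimmed mean (2% left out at each end) was 1500.01 on both arrays, so they had been scaled alike. The published methods describe another array and were not used. For the probe annotation, the genome build is not given in the sources used. Of 45101 probe sets, the 34945 with 1 gene in the platform annotation were used, and 1 probe set of Kif27 that names several genes was left out. The background limit, the probe set of a gene and the centred difference are as stated in the results. Every member was named with both values. The members and lists were chosen with earlier results of these data known. The scripts (Python 3.11.15, numpy 2.4.6, pandas 2.3.3, matplotlib 3.10.9) were tested on simulated data. Alternatives were other limits (100, 2 times the limit, the 90th percentile), other choices of probe set, quantile normalization, no centring, a pseudocount of 16 and each array alone. Of the members, 10 had no promoter window, and no protein sequences were used here.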

Additional observations from a re-analysis of the deposited data

How the results depend on the processing

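Members above background numbered 75 at a limit of 100, 67 at 2 times the limit, 72 at the 90th percentile, 63 with the median over each gene's probe sets in place of the most intense, and 71 after quantile normalization, and 72 to 73 on 1 array alone. The median of probe sets lost Cenpk, Cenpo, Kif20b, Bub3, Kif13b, Kif17, Kif21a and Kif21b, and 61 members were above background in each of the 7 settings that measured them. With that median, members over 10 times the limit fell to 27 (an alternative chosen after seeing the data, with 50 to 53 on 1 array alone), and the median difference was 0.027 over 63 members, 0.15 over 17 centromere proteins (chosen after seeing the data) and 0.0417 over 8 mitotic kinesins (-0.02 in the results above), so that the direction of the mitotic kinesins reversed. For kinesins outside the mitotic set it also changed sign, from 0.12 to -0.31, a value added after seeing the data. Differences over 2-fold were found for 4 members at a limit of 100 and 1 at 2 times the limit, and for 833 and 352 of all genes, in place of 536. The other 88 values of the main results stayed within tolerance (a count within 1.5 times, a median within 1 standard error), which still let members higher in replicate 1 go from 47 of 71 to 33 of 63 with the median over probe sets. Differences of single members (alternatives added after seeing the data) moved by under 1 SD (0.51) in 542 cases and by more in 30. The sign turned in 39 of 572 cases, 20 of them with the median over probe sets, where Kif13b went from -0.64 to 0.97, Kif5a from 0.82 to -1.11, Kif1c from 0.57 to -0.40 and Kif21a from -0.90 to 0.18. Dim probe sets near the limit have uncertain calls. No paired analysis was possible because there is 1 group.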
